A study of Mus musculus with 6 samples.

Results

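Type VI and fibril-associated collagens lie around and between the thick type I collagen fibrils that carry load in tendon. The 9 genes described here were taken by name from the 54189 features of an RNA-seq count table of mouse Achilles tendon, and all 9 were found in it. Col6a1, Col6a2, Col6a3 and Col6a6 encode chains of type VI collagen. Col12a1, Col14a1, Col16a1 and Col22a1 encode the collagens XII, XIV, XVI and XXII, which belong to the fibril-associated collagens with interrupted triple helices (FACITs). Col15a1 encodes type XV collagen, a collagen of the basement membrane zone that belongs to the multiplexins and not to the FACITs.

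The tendons came from 3 genotypes at 4 weeks of age, with 1 RNA-seq and 1 small RNA-seq library each. Control mice carried floxed Dicer alleles (Dicer f/f) and no Cre. ScxHt mice carried a Cre knock-in at 1 Scx allele (ScxCre/+) with wild-type Dicer alleles (Dicer +/+). Dicer cKO mice carried the same knock-in with floxed Dicer alleles (ScxCre/+, Dicer f/f), a cross meant to delete Dicer, the enzyme that cuts microRNA precursors to their mature length, in cells that express Scx. Recombination may be incomplete in those cells, cells of other lineages in the sample keep their Dicer alleles, and the knock-in and the deletion cannot be told apart in the Dicer cKO/Control comparison.

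The type VI chains α1 and α2 join with a larger chain, α3 or the related α6, into heterotrimers that assemble into beaded microfilaments in the matrix around cells. Collagens XII and XIV bind the surface of collagen fibrils and link them to the surrounding matrix, and collagen XII loss or type VI loss is known to cause muscle and joint disease. Collagen XXII is a marker of the myotendinous junction, where muscle fibres attach to tendon. The microRNAs of the miR-29 family are known to repress many collagen transcripts.

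RNA-seq counts added up to 16244232 in Control, 15769301 in ScxHt and 14959399 in Dicer cKO. Dicer1, the targeted gene, had 1919, 2025 and 1621 reads in this order and a Dicer cKO/Control ratio of 0.877 (95% counting interval 0.821 to 0.938), over all its exons and all cell types, so this count does not show the deleted exons by themselves. Scx had 1055, 686 and 371 reads, with a ratio to Control of 0.365 in Dicer cKO and 0.623 in ScxHt. The 12 tendon fibroblast markers and the 20 skeletal muscle markers were present in every library. Muscle markers added up to 66844 CPM (counts scaled to the library total) in Control, 37661 in ScxHt and 114966 in Dicer cKO, so the libraries differed in the muscle RNA they held. A ratio in whole tendon cannot tell fewer cells of a type from less RNA per cell.

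The 9 genes are shown first by the microRNA sites in their 3' UTRs, because the deletion acts on microRNAs. The 3 mature forms of the miR-29 family share a seed (bases 2 to 8, in capitals), and miR-135a, a microRNA that the study tested in cultured cells, has another one (RefSeq, GRCm38.p6).
miR-29a-3p: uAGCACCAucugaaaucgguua
miR-29b-3p: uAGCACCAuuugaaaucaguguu
miR-29c-3p: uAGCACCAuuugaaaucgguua
miR-135a-5p: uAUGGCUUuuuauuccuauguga
The 7 bases complementary to the miR-29 seed, TGGTGCT on the transcript strand, were present in the longest annotated 3' UTR (GENCODE vM21, GRCm38) of 5 of the 9 genes. Among 10953 analysed protein-coding genes, 16.9% held this site, with a median 3' UTR of 1300 bases against 877 bases for the 9 collagen genes. The 9 genes held 0.479 sites per kilobase, and the analysed genes held 0.116.

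In 3 of the 9 genes (33.3%, against 3.62% of the analysed genes) the site was an 8mer, in which an A follows the 7 bases. These sites are printed with their neighbouring bases, with the match in capitals.
Col6a2, chr10:76598750-76598757, minus strand: acaaatgggggTGGTGCTAtttgaacgct
Col6a3, chr1:90767411-90767418, minus strand: acctgtcaataTGGTGCTAaatgtgtcta
Col15a1, chr4:47312500-47312507, plus strand: aatccacatatTGGTGCTAgattctgcag
Col16a1 and Col22a1 held the 7 bases without that A, Col16a1 once and Col22a1 at 2 places.
Col16a1, chr4:130099268-130099274, plus strand: tggggttccccTGGTGCTgca
Col22a1, chr15:71798668-71798674, minus strand: gtggttatcctTGGTGCTtcaggctacca
Col22a1, chr15:71798587-71798593, minus strand: tatgaacaagcTGGTGCTgaagaagagtt
The complement of the miR-135a seed, AAGCCAT, was found in Col22a1 alone among the 9 genes (15.6% of the analysed genes held it).
Col22a1, chr15:71797802-71797808, minus strand: agctgaagtagAAGCCATggaggaatgct
No site of either kind was found in the longest 3' UTR of Col6a1, Col6a6, Col12a1 or Col14a1. A match of letters is a description of the transcript and was not tested for activity.

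In the small RNA-seq libraries, Mir29a had 13829 reads in Control, 10302 in ScxHt and 7624 in Dicer cKO, a Dicer cKO/Control ratio of 0.632 (0.614 to 0.650). Mir29c had 2012, 1721 and 1449 reads and a ratio of 0.825 (0.771 to 0.883). Mir29b-1 and Mir29b-2, which give the same mature sequence, had ratios of 0.956 and 0.967, with intervals that held 1. Mir135a-1 had 38, 13 and 16 reads and a ratio of 0.483 (0.251 to 0.886), with too few reads to order the ScxHt and Dicer cKO libraries. Small RNA-seq counts added up to 10986541 in Control, 8437993 in ScxHt and 8435829 in Dicer cKO. These microRNA ratios rest on DESeq2's scaling of the libraries alone, which would not show a change shared by most microRNAs. No other scaling was run for them, so whether Mir29c stays below 1 under another one was not tested.

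Levels between genes are compared here per feature length, as the RPKM values (reads scaled to feature length and library total) that the authors deposited. The length implied by these values was 4380 bases for Col6a1 and 8325 bases for Col6a2. How far such lengths match the transcripts made in tendon was not tested, and the order of the genes depends on them. In the Control library Col6a1 was highest at 251 RPKM and Col6a6 lowest at 2.30 RPKM, 109 times apart. Between them came Col6a3 with 227, Col15a1 with 148, Col12a1 with 135, Col6a2 with 109, Col16a1 with 27.7, Col14a1 with 23.6 and Col22a1 with 6.68 RPKM. The collagen genes thus fell into 5 abundant genes above 100 RPKM and 4 scarcer ones below 30 RPKM in the Control tendon. Each neighbour in this order differed from the next by more than counting error, the closest pair being Col15a1 and Col12a1 with a ratio of levels of 1.10 (1.08 to 1.12).

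The order changed in 2 places in the ScxHt library, where Col12a1 (185 RPKM) stood above Col15a1 (149 RPKM) and Col14a1 (40.3 RPKM) above Col16a1 (32.5 RPKM). Col15a1 and Col6a2 (145 RPKM) were the closest neighbours there, with a ratio of levels of 1.03 (1.01 to 1.05). In the Dicer cKO library Col6a3 and Col6a1 had the same level within counting error, 169 and 168 RPKM (ratio of levels 1.004, 0.982 to 1.03). Col12a1 (120 RPKM) stood above Col15a1 (101 RPKM) there as well. Col22a1 and Col6a6 held the last places in each library. The 9 genes together took 0.815% of all counts in Control, 1.07% in ScxHt and 0.629% in Dicer cKO.

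**Figure D1:**
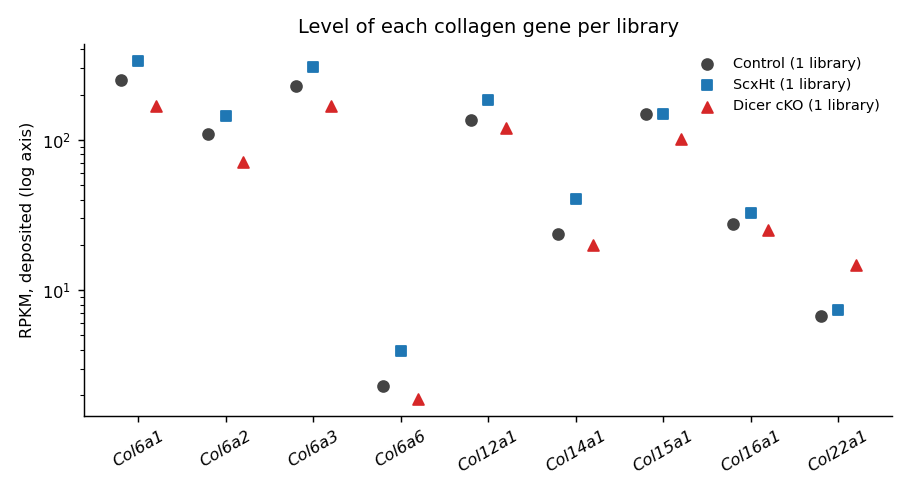
Deposited RPKM (log axis) of the 9 collagen genes in the Control, ScxHt and Dicer cKO library, 1 point per library and no error bar because each genotype has 1 library. The Dicer cKO point is the lowest for every gene except Col22a1, where it lies at 14.7 RPKM above 6.68 and 7.38 RPKM.

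Against the Control, 8 of the 9 genes had a lower normalized count in the Dicer cKO tendon and Col22a1 had a higher one. Normalized counts are the counts divided by DESeq2's size factors of the 2 libraries compared. A gene was called higher above a ratio of 1.67 and lower below 0.60 where the mean normalized count of both libraries exceeded 50, which all 9 genes did in each comparison. By this rule 1 of the 9 genes was higher (Col22a1) and 0 were lower, while 3.87% of the 13504 genes analysed were higher and 4.18% lower. The median ratio of the 9 genes was 0.784, or -0.35 on the log2 scale, beside a median of -0.03 over all genes analysed. The counts over all genes, 523 higher and 564 lower, became 672 higher and 441 lower when libraries were scaled by their total counts.

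Against the Control, the ScxHt tendon had higher normalized counts for 8 of the 9 genes and a lower one for Col15a1. The counting interval lay above 1 for 7 genes, below 1 for Col15a1, and held 1 for Col22a1. Over all genes analysed it lay above 1 for 26.4% and below 1 for 23.7%. None of the 9 genes was called, while 3.05% of 13563 genes were higher and 4.73% lower. The median ratio was 1.24, or 0.31 on the log2 scale, beside 0.02 over all genes. Over all genes 414 were higher and 641 lower, and scaling by total counts gave 647 higher and 460 lower, with the median of all genes moved to 0.12. Both comparisons use the same Control library, and the next one shares a library with each of them.

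Against the ScxHt tendon, which also carries the knock-in, 5 of the 9 genes were lower in the Dicer cKO tendon and Col22a1 was higher. The 5 lower genes were the 4 type VI chains and Col14a1. Over all 13555 genes analysed, 5.68% were lower and 7.67% higher. The median ratio of the 9 genes was 0.580, or -0.79 on the log2 scale, beside -0.03 over all genes. None of the 5 ratios was below 0.5.

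**Figure D2:**
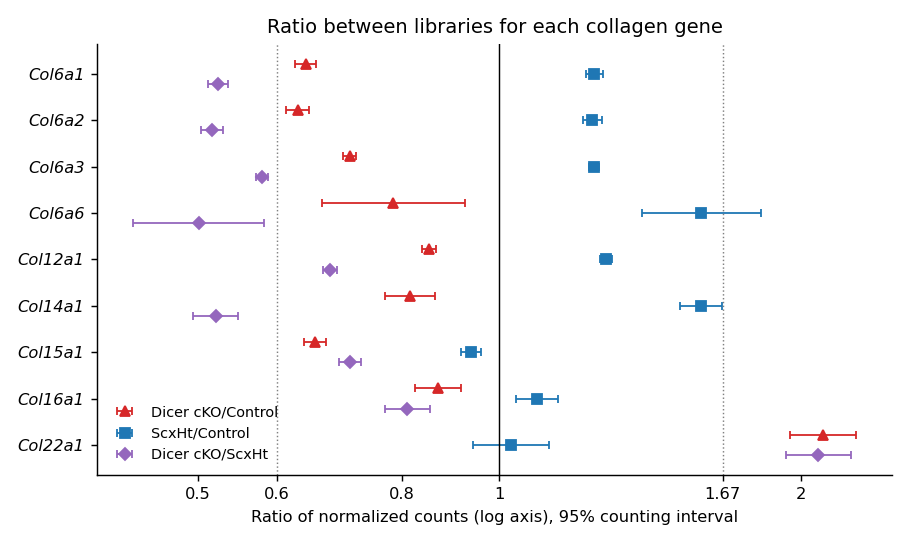
Ratio of normalized counts (log axis) for each of the 9 genes in each of the 3 pairs of libraries, with the 95% counting interval as the bar, a solid line at 1 and dotted lines at the call thresholds 0.60 and 1.67. Only Col22a1 lies past 1.67, at 2.10 for Dicer cKO/Control and 2.08 for Dicer cKO/ScxHt, and 5 genes lie below 0.60 for Dicer cKO/ScxHt.

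Intervals given with the ratios are exact (Clopper-Pearson) 95% intervals from the reads in the 2 libraries. They cover counting error only, and the spread between mice of a genotype is not known from 1 library each.

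The 3 main type VI chains had similar ratios in each comparison. Col6a1 (GRCm38 chr10:76708792-76726168, minus strand), the α1 chain, had 17840 reads in Control, 23155 in ScxHt and 11012 in Dicer cKO. Relative to Control it stood at a ratio of 0.641 (0.626 to 0.656) in Dicer cKO and of 1.24 (1.22 to 1.27) in ScxHt, and the Dicer cKO/ScxHt ratio came to 0.524 (0.512 to 0.536). Col6a2 (chr10:76595762-76623630, minus strand), the α2 chain, is its neighbour on the chromosome, with 85161 bases between the genes. It had 14689, 18981 and 8902 reads in the Control, ScxHt and Dicer cKO libraries, and ratios of 0.629 (0.613 to 0.646), 1.24 (1.21 to 1.27) and 0.517 (0.504 to 0.530). For both chains the ScxHt library was highest and the Dicer cKO library lowest, and the intervals of the 2 chains overlapped in every comparison.

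Within a library the ratio of Col6a1 to Col6a2 reads needs no scaling. It was 1.21 (1.19 to 1.24) in Control, 1.22 (1.20 to 1.24) in ScxHt and 1.24 (1.20 to 1.27) in Dicer cKO, and the 3 intervals overlapped. The α1 and α2 transcripts therefore kept their proportion within counting error in tendons whose levels of both differed by a ratio of about 0.52. RefSeq promoter windows of 300 bases near the gene start were present for 6 of the 9 genes, and that of Col15a1 ended upstream of the annotated gene. The motif CANNTG, which basic helix-loop-helix factors such as SCX can bind and which reads the same on both strands, occurred in the windows of 4 of these 6 genes (Col6a1, Col6a6, Col15a1 and Col16a1) and not in those of Col6a2 and Col6a3, while 72.3% of 32851 promoter windows held it.

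Col6a3 (chr1:90765923-90843971, minus strand), the α3 chain, had the most reads of the 9 genes, with 44205 in Control, 57346 in ScxHt and 30196 in Dicer cKO. Relative to Control it stood at a ratio of 0.709 (0.699 to 0.720) in Dicer cKO and of 1.24 (1.23 to 1.26) in ScxHt, and the Dicer cKO/ScxHt ratio came to 0.580 (0.572 to 0.588). The α3 chain thus lay nearer to 1 than α1 and α2 in the Dicer cKO tendon, with intervals that did not overlap theirs. There were 2.48 Col6a3 reads per Col6a1 read both in Control (2.44 to 2.52) and in ScxHt (2.44 to 2.51), and 2.74 (2.68 to 2.80) in Dicer cKO. Per feature length these ratios were 0.907, 0.907 and 1.004. The miR-29 8mer printed above lies in Col6a3 and in Col6a2, with Dicer cKO/Control ratios of 0.709 and 0.629. Col6a1 (0.641) and Col6a6 (0.784) have none. Whether the site bears on these ratios was not tested.

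Col6a6 (chr9:105687809-105828160, minus strand), which encodes the α6 chain, had 343 reads in Control, 569 in ScxHt and 259 in Dicer cKO. Its ratio was 1.59 (1.39 to 1.82) in ScxHt and 0.784 (0.665 to 0.924) in Dicer cKO relative to Control, and 0.502 (0.431 to 0.582) in Dicer cKO relative to ScxHt. Col6a6 reached 0.00776 reads per Col6a3 read in Control (0.00696 to 0.00863), 0.00992 in ScxHt (0.00912 to 0.0108) and 0.00858 in Dicer cKO (0.00756 to 0.00969). Only the Control and ScxHt intervals of this share did not overlap. The α3 chain exceeded α6 by far in every library.

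Col12a1 (chr9:79598991-79718831, minus strand), the FACIT collagen XII, had 33391 reads in Control, 44523 in ScxHt and 27384 in Dicer cKO. Relative to Control it stood at a ratio of 0.852 (0.838 to 0.865) in Dicer cKO and of 1.28 (1.26 to 1.30) in ScxHt, and the Dicer cKO/ScxHt ratio came to 0.678 (0.668 to 0.688). It lay nearer to 1 than each of the 3 main type VI chains in the Dicer cKO tendon. Col14a1 (chr15:55307750-55520803, plus strand), the related collagen XIV, had 2687, 4452 and 2106 reads in the Control, ScxHt and Dicer cKO libraries. Its ratios to Control were 0.814 (0.768 to 0.862) in Dicer cKO and 1.59 (1.51 to 1.67) in ScxHt, and Dicer cKO/ScxHt gave 0.521 (0.495 to 0.549). The ScxHt library was thus the one that stood apart for Col14a1.

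Collagen XII was the main transcript of this pair in each tendon. There were 12.4 Col12a1 reads per Col14a1 read in Control (11.9 to 12.9) and 13.0 in Dicer cKO (12.4 to 13.6), while the ScxHt interval, 9.70 to 10.3, lay below both. Per feature length the ratio was 5.72 in Control, 4.61 in ScxHt and 5.99 in Dicer cKO. With total counts as the scaling, the ScxHt/Control ratios of Col14a1 and Col6a6 both became 1.71 and passed the threshold for a call.

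Col16a1 (chr4:130047840-130099283, plus strand), the FACIT collagen XVI, had 3039 reads in Control, 3459 in ScxHt and 2540 in Dicer cKO. Its ratios, 0.868 (0.823 to 0.915) in Dicer cKO and 1.09 (1.04 to 1.15) in ScxHt relative to Control and 0.809 (0.768 to 0.852) in Dicer cKO relative to ScxHt, spanned less than those of any other of the 9 genes. Col15a1 (chr4:47208161-47313167, plus strand), the collagen XV of vessels, nerves and muscle basement membranes, had 15269, 14930 and 9621 reads in the Control, ScxHt and Dicer cKO libraries. The Dicer cKO library stood at a ratio of 0.654 (0.638 to 0.671) to Control and 0.710 (0.692 to 0.728) to ScxHt. Its ScxHt/Control ratio of 0.937 (0.916 to 0.958) was the only one of the 9 below 1, and it became 1.01 with total counts as the scaling. Col15a1 was thus lower in the Dicer cKO library than in either of the others, which differed little from each other.

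Col22a1 (chr15:71795795-72034227, minus strand), the FACIT collagen XXII of the myotendinous junction, had 999 reads in Control, 1071 in ScxHt and 2023 in Dicer cKO. Relative to Control it stood at a ratio of 2.10 (1.95 to 2.27) in Dicer cKO and of 1.03 (0.942 to 1.12) in ScxHt, and the Dicer cKO/ScxHt ratio came to 2.08 (1.93 to 2.24). It was the only one of the 9 genes with its highest count in the Dicer cKO library, and 98.7% of all genes analysed had a lower Dicer cKO/Control ratio.

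Skeletal muscle markers moved in the same comparison as Col22a1. Of 20 such genes, 12 were called higher and 0 lower in Dicer cKO against Control, with a median log2 ratio of 0.85, and the highest were Myh4 (6.37), Pvalb (3.84) and Mybpc2 (3.48), all genes of fast fibres. For ScxHt/Control 4 were higher and 8 lower, with a median of -0.29. The 4 higher there were Myh4 (4.70), Pvalb (3.22), Mybpc2 (2.46) and Actn3 (1.79), so these fast-fibre genes were lowest in the Control library. For Dicer cKO/ScxHt 17 of the 20 were higher, and the 3 not called were Myh4 (1.38), Pvalb (1.21) and Mybpc2 (1.44). No muscle marker was at 0 in any library. Acta1, the skeletal muscle actin, had 85448 reads in Control, 51113 in ScxHt and 130878 in Dicer cKO. Col22a1 reached 11.7 reads per 1000 Acta1 reads in Control (10.97 to 12.4), 21.0 in ScxHt (19.7 to 22.3) and 15.5 in Dicer cKO (14.8 to 16.2). Relative to this muscle transcript the Dicer cKO library was thus not the highest, but stood between the other two.

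Relative to Ckm, the muscle creatine kinase, Col22a1 reached 123 reads per 1000 in Control (115 to 131), 151 in ScxHt (142 to 161) and 142 in Dicer cKO (135 to 149). The ScxHt and Dicer cKO intervals overlapped. Relative to Ttn, the giant sarcomere protein titin, it reached 1.45 (1.36 to 1.54), 3.25 (3.06 to 3.46) and 1.90 (1.82 to 1.99) reads per 1000. The Dicer cKO value was above the Control value for these 3 muscle genes, by 1.16 to 1.32 times. Over all 20 muscle markers, Col22a1 reads per marker read were higher in Dicer cKO than in Control for 14 and lower for 6, with changes from 0.330 times (against Myh4) to 1.74 times and a median of 1.16 times, where the ratio of normalized Col22a1 counts was 2.10. From ScxHt to Dicer cKO these reads per marker read were higher for 5 and lower for 15, with a median of 0.887 times. From Control to ScxHt they were higher for 15 and lower for 5, with a median of 1.25 times. The part of muscle RNA in the Col22a1 result was not tested.

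Col22a1 is 1 of 15 genes in a list of myotendinous junction markers. For Dicer cKO/Control 3 of them were higher, namely Col22a1, Ankrd1 (1.98), a stretch-responsive muscle ankyrin repeat protein, and Xirp2 (1.73), an actin-binding protein of striated muscle. Thbs4, a thrombospondin of tendon and muscle attachments, was lower at 0.504. Ankrd1 had 157 reads in Control, 88 in ScxHt and 300 in Dicer cKO, and Xirp2 had 38375, 22829 and 63805. Both had their lowest count in the ScxHt library, with ScxHt/Control ratios of 0.537 and 0.570, where Col22a1 was at 1.03. For Dicer cKO/ScxHt 9 of the 15 were higher and 1, Thbs4, was lower.

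Type I collagen makes up the fibrils on which these collagens lie, and Col1a1 had 1261322 reads in Control, 925996 in ScxHt and 658168 in Dicer cKO. Its ratio to Control was 0.542 in Dicer cKO and 0.704 in ScxHt. Counted per 1000 Col1a1 reads of the same library, each of the 9 genes was lowest in the Control tendon, and no size factor enters this comparison. Of all genes analysed, 2.40% had a lower Dicer cKO/Control ratio than Col1a1, and 9.36% had a lower ScxHt/Control ratio. Most genes would thus be lowest in Control on this measure, and it is not a trait of these 9. Col6a1 stood at 14.1 (13.9 to 14.4) in Control, 25.0 (24.7 to 25.3) in ScxHt and 16.7 (16.4 to 17.0) in Dicer cKO. Col12a1 stood at 26.5 (26.2 to 26.8), 48.1 (47.6 to 48.5) and 41.6 (41.1 to 42.1). For every gene the Control interval lay below the intervals of both other libraries.

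From the Control to the Dicer cKO library, the reads per Col1a1 read changed 1.16 times for Col6a2, 1.18 times for Col6a1, 1.21 times for Col15a1, 1.31 times for Col6a3, 1.45 times for Col6a6, 1.502 times for Col14a1, 1.57 times for Col12a1, 1.60 times for Col16a1 and 3.88 times for Col22a1. The type VI chains α1 and α2 thus stayed closest to Col1a1, and the FACIT genes moved furthest from it. From the Control to the ScxHt library the change was 1.33 times for Col15a1, 1.46 times for Col22a1, 1.55 times for Col16a1, between 1.76 and 1.82 times for Col6a1, Col6a2, Col6a3 and Col12a1, and 2.26 times for Col6a6 and Col14a1. Col16a1 had nearly the same value in the ScxHt and the Dicer cKO library, 3.74 (3.61 to 3.86) and 3.86 (3.71 to 4.01) per 1000 Col1a1 reads.

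**Figure D3:**
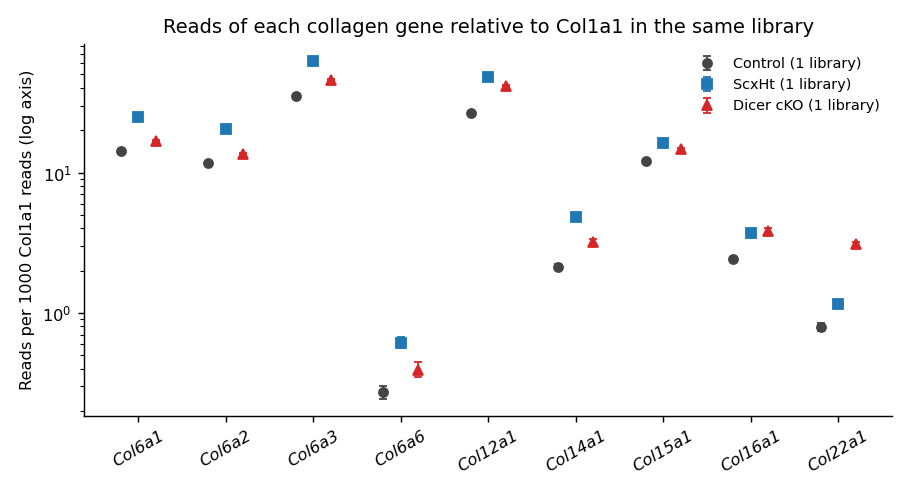
Reads of each of the 9 genes per 1000 Col1a1 reads of the same library (log axis), with 95% counting intervals as bars, 1 point per library. The Control point is the lowest for every gene, as it would be for most genes because Col1a1 itself is lower in the other libraries. Col22a1 is highest in the Dicer cKO library at 3.07, against 0.792 in Control and 1.16 in ScxHt.

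The 11 fibril-forming collagen genes were more mixed than the 9 genes in the ScxHt tendon. For Dicer cKO/Control 3 of them were lower and 0 higher, with a median log2 ratio of -0.53, and the lower ones were Col1a1 (0.542), Col5a1 (0.553), the α1 chain of the fibril-nucleating type V collagen, and Col1a2 (0.574). For ScxHt/Control none was called, 5 of the 11 ratios lay above 1, and the median was -0.09, which became 0.02 with total counts as the scaling. The 5 were Col3a1 (1.37), Col5a2 (1.35), Col5a3 (1.24), Col5a1 (1.21) and Col11a1 (1.20), each with its interval above 1. These ratios were close to those of Col6a1, Col6a2, Col6a3 and Col12a1. The other 6 lay below 1, among them Col1a1 (0.704), Col11a2 (0.691) and Col24a1 (0.645). The 9 type VI and fibril-associated genes had 8 of 9 ratios above 1 and a median of 0.31 in that comparison. The difference between the 2 sets of genes was not tested.

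**Figure D4:**
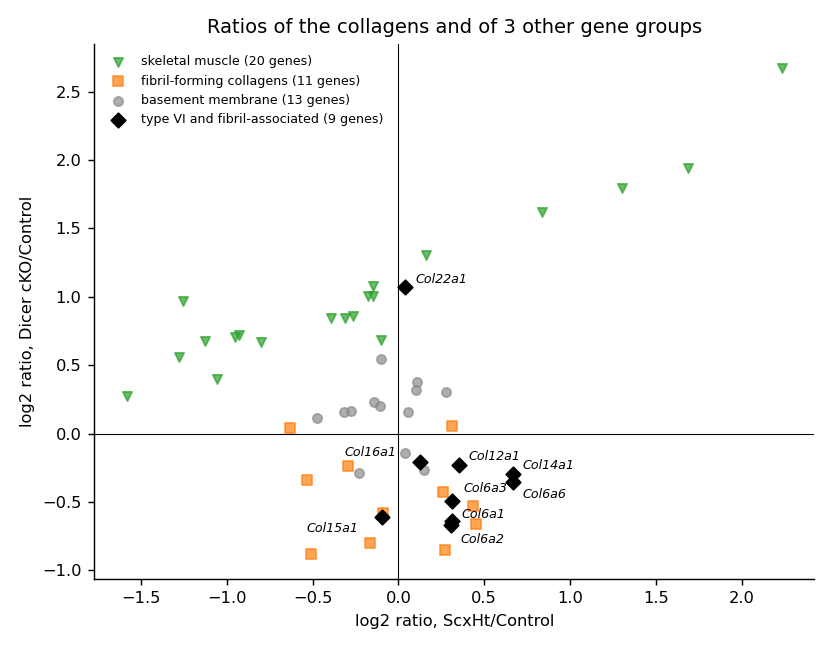
Log2 ratio of ScxHt/Control (x axis) and Dicer cKO/Control (y axis) for the 9 type VI and fibril-associated collagens and 3 other gene groups, 1 point per gene. Both axes use the same Control library, so the positions are not independent of each other, and 7 of the 9 genes lie right of 0 and below 0, while Col22a1 lies at 1.07 on the y axis among the muscle genes.

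Of 22 genes for partners and receptors of collagens VI, XII and XIV, 6 were lower and 0 higher for Dicer cKO/Control, with a median log2 ratio of -0.40. Fmod (0.455), Comp (0.461), Tnxb (0.490), Fn1 (0.505), Dcn (0.542) and Itga11 (0.577) were the lower ones. Tnxb encodes tenascin-X, and Dcn encodes decorin, a proteoglycan of the fibril surface that binds type VI and XIV collagen. Fmod encodes fibromodulin, Comp a pentameric cartilage and tendon matrix protein, Fn1 fibronectin and Itga11 the α subunit of a collagen-binding integrin. For ScxHt/Control 1 of the 22 was higher and 0 were lower, with a median of 0.17. That gene was Bgn, the proteoglycan biglycan, named after its ratio of 1.72 was seen. For Dicer cKO/ScxHt 9 were lower, with a median of -0.59.

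The 18 genes of collagen folding, processing and crosslinking had a median log2 ratio of -0.45 in Dicer cKO and 0.23 in ScxHt relative to Control, and of -0.73 in Dicer cKO relative to ScxHt. Their 3 lower genes for Dicer cKO/Control were Plod2 (0.445), the telopeptide lysyl hydroxylase, Adamts2 (0.525), the procollagen N-proteinase, and Lox (0.548), lysyl oxidase, and 0 were higher. The 13 analysed genes of the basement membrane had a median of 0.16 for Dicer cKO/Control and 0 calls in any of the 3 comparisons. Col15a1, whose protein lies at basement membranes, was at -0.61 on the same scale.

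Among the type VI, FACIT and multiplexin genes beyond the 9, 8 of 9 names were in the table and 3 had enough reads. Col6a5, another chain in place of α3, had 84 reads in Control, 123 in ScxHt and 75 in Dicer cKO, and a Dicer cKO/Control ratio of 0.927. Col20a1 had 97, 116 and 106 reads and a ratio of 1.13. Col18a1, the multiplexin related to Col15a1, had 801, 840 and 1136 reads and a ratio of 1.47 to Control in Dicer cKO and 1.005 in ScxHt, so the 2 multiplexins lay on opposite sides of 1 in the Dicer cKO tendon. None of the 3 genes was called.

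By the pair of log2 ratios against the Control, the genes nearest to each of 4 members were sought among 2448 genes with a mean normalized count above 1000, with the Euclidean distance as the measure and 3 libraries behind each pair. Nearest to Col6a1 were Slc38a1, Col6a2, Cpm, Sdc1 and Cd9, with distances of 0.00695 to 0.0540. Nearest to Col12a1 were Sec31a, Mia3, Cgnl1, Fam46a and Ptbp1, at up to 0.0197. Nearest to Col14a1 were Rcn3, Pdgfra, Ctsk, Fuca1 and Igfbp3, at up to 0.103. Col22a1 had no neighbour nearer than 0.113, and the nearest were Tpm1, Acly, Tnnc2, Tnnt3 and Myl1, of which Tnnc2 and Tnnt3 are in the list of muscle markers. Of the 9 genes, Col6a2 was the only one to appear in these 4 sets.

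Other cell types differed between the libraries beside the collagens. Tendon fibroblast markers were lower in 7 of 12 and higher in 0 for Dicer cKO/Control, and added up to 132736 CPM in Control, 115083 in ScxHt and 76310 in Dicer cKO. Most of this sum was Col1a1 and Col1a2, with 7.76% and 4.36% of all counts in Control. For ScxHt/Control the 12 ratios were mixed, 7 above 1 and 5 below, with a median log2 ratio of 0.15. Markers of sheath and interstitial fibroblasts, where Col14a1 and type VI collagen are also made, were lower in 3 of 12 and higher in 0 for Dicer cKO/Control. They added up to 5133, 7766 and 3369 CPM in the Control, ScxHt and Dicer cKO library. Most of this sum was Col3a1, itself a collagen, with 0.349% of all counts in Control. The order of the sums over the libraries was that of 7 of the 9 collagen genes. The median log2 ratio of the list was 0.32 in ScxHt against Control and -0.81 in Dicer cKO against ScxHt. For ScxHt/Control 9 of the 12 ratios lay above 1, and Tppp3 (0.856), Dpp4 (0.931) and Ly6a (0.997) lay below. Macrophage markers and cartilage and bone markers (2609, 3295 and 1239 CPM) had the same order, so it was not particular to sheath and interstitial fibroblasts. The part of sheath and interstitial fibroblasts in the collagen ratios was not tested.

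Macrophage markers were higher in 7 of 8 for ScxHt/Control and lower in 8 of 8 for Dicer cKO/ScxHt, at 236, 441 and 188 CPM in the Control, ScxHt and Dicer cKO library. Schwann cell markers, of cells that also make type VI and XV collagen, were higher in 4 of 5 analysed genes for Dicer cKO/Control, at 232, 302 and 709 CPM, with none of the 8 listed markers at 0 in any library. Erythroid markers were higher in 5 of 5 analysed genes, at 189, 194 and 461 CPM. Cartilage and bone markers were lower in 5 of 9, with Bglap at 0 in all libraries. Among endothelial markers 0 of 8 were called for Dicer cKO/Control, among smooth muscle and pericyte markers 1 of 7 was higher (Tagln, 1.67), and among adipocyte markers 1 of 6 was lower (Lep, 0.425). The part of these cells in the results was not tested either. The annotation also holds antisense features within Col12a1, Col14a1 and Col22a1, and without a stated strand setting their reads cannot be told from those of the collagen genes.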

How the data were processed

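Achilles tendon RNA of 3 genotypes was measured by RNA-seq and by small RNA-seq, with 1 library per genotype and assay. The authors removed adaptors, mapped reads to GRCm38 (mm10) using TopHat and Bowtie2 and counted them per feature using HTSeq, per the supplementary methods and the submitters' processing notes. Versions, annotation release and strand setting are not given in the sources used here. The authors deposited raw read counts per feature and, for each library, RPKM values scaled by feature length and total counts. Of the 54189 lines of the RNA-seq table, 463 repeat an earlier line.

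Counts were divided by size factors of DESeq2 1.42.0 (R 4.3.3), estimated on the 2 libraries of a comparison over the whole table. Ratios and 95% Clopper-Pearson intervals came from Python 3.11.15 (scipy 1.17.1, pandas 2.3.3, numpy 2.4.6), and figures from matplotlib 3.10.9. Reads are not independent molecules, so intervals cover counting error only. Without replicates no test was run. The thresholds (above 1.67, below 0.60, mean normalized count above 50, and above 15 in small RNA-seq) follow the methods of the study. The procedure was tested on simulated counts that held counting error only, with known library scaling. That test therefore says nothing of the spread between mice or of the estimated size factors.

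The 9 genes and the gene lists were chosen with earlier results of these data known. Genes named beside the 9 are Dicer1 and Scx, in each list the 3 genes at either end of the Dicer cKO/Control ratios past a threshold, the genes of the within-library ratios, and the 5 nearest in ratio to 4 of the 9. Others were named after their values were seen. Sites were searched in the longest 3' UTR of each gene in GENCODE vM21. No promoter window was available here for Col12a1, Col14a1 and Col22a1. Alternatives were edgeR 4.0.16 TMM factors, total counts with and without features above 1%, size factors over 3 libraries or without muscle and Schwann cell genes, a pseudocount of 1, minimum means of 10, 200 or none, thresholds of 2 and 0.5, and the whole interval past the threshold.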

Additional observations from a re-analysis of the deposited data

How the results depend on the processing

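The ratios of the 9 genes were recomputed in the 3 comparisons under 6 other scalings or pseudocounts, 162 ratios in all. Of these, 161 lay on the same side of 1 as reported, the exception being Col15a1 for ScxHt/Control, at 1.01 with total counts in place of 0.937. In 22 the value moved past the counting interval. The median ratio of the 9 genes for ScxHt/Control was 1.34 with total counts and 1.26 with total counts without features above 1% of a library, in place of 1.24, and that for Dicer cKO/ScxHt was 0.555 with total counts in place of 0.580. With total counts 2 of the 9 genes were higher for ScxHt/Control (Col6a6 and Col14a1) in place of 0. With thresholds of 2 and 0.5, 0 of the 9 genes were lower for Dicer cKO/ScxHt in place of 5, which follows from the stricter threshold, since these 5 ratios lay between 0.502 and 0.580. No other alternative for a count changed it. No paired analysis was possible because each genotype had 1 library per assay, and for the same reason no replicate could be left out. The intervals reflect read counts only, and how far 2 mice of 1 genotype differ in these genes is not known from these libraries.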
